A study of Capra hircus with 4 samples.

Results

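The non-muscle myosins were followed in goat longissimus dorsi muscle, in 1 library of an untreated goat group and 3 of a group dosed with ractopamine. The group was set as 8 genes: the heavy chains MYH9, MYH10, MYH11 and MYH14, the light chains MYL6, MYL9 and MYL12B, and the light chain kinase MYLK. MYH11, the smooth muscle heavy chain, is counted with them because it is built from the same kind of parts. A member was any assembled transcript group (unigene) that the authors' table pairs with 1 of these names, and 6 of the 8 names were found. They hold 22 of the 59774 unigenes and are 6 of 11209 goat gene names. MYL9 and MYL12B are not names in that table and were left out of all counts of members. The group was chosen because MYH9 and MYH14 were low in all treated libraries, so every comparison of a treated library with the control library is a description and was given no test.

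The animals were Cashmere goats, 2 months of age by the labels. Ractopamine, a β-adrenergic agonist, was given by mouth at 1 mg/kg body weight for 28 days and was then withdrawn for 21 days, and control animals did not receive it. The labels name the libraries control and treatment1 to treatment3 and give no sampling day for any of them. The series calls the 3 treated libraries replicates, whereas the study's methods name 3 sampling days. Unigenes with counts above 0 numbered 39256, 11275 and 30808 in treated libraries 1, 2 and 3. The study prints the same 3 numbers as genes differing from control on dosing day 21, withdrawal day 3 and withdrawal day 21. No label states this order, so no day was assigned to a library. Treatment, sampling day and animal therefore cannot be told apart, and each treated library was set against the same control library.

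Non-muscle myosin II is built of paired heavy chains, essential light chains and regulatory light chains. The heavy chain head binds actin and hydrolyses ATP, and the long tail assembles into filaments that contract the cell cortex, stress fibres and cell junctions. Phosphorylation of the regulatory light chain by MYLK or by other kinases switches the motor on. In muscle tissue these genes are known, among other sites, from myoblasts, vessel walls, fibroblasts and other cells between the fibres. The fibre's main motor is a sarcomeric myosin. How far the fibres themselves express the members was not tested. In such bulk tissue, fewer cells of a type and less RNA per cell cannot be told apart.

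The libraries held between 6675218 and 8533046 expected counts, the authors' estimates of fragments per unigene, and differed in what these were. Mitochondrial unigenes took 23.3% of the control counts and 41.1%, 89.4% and 54.4% of those in treated libraries 1, 2 and 3. Outside mitochondrial, ribosomal and bacterial unigenes, 6416037, 4350508, 175806 and 2852498 counts remained. The ratios of the genes are thus given per 1000000 of all counts, as FPKM is scaled, and per 1000000 of these remaining counts, and sums over marker lists are given on the second scale only. Treated library 2 stood apart, and its values rest on the smallest number of remaining counts. Of the 9 listed muscle fibre markers 7 were in the table, and CKM, the muscle creatine kinase, had 310668, 145530, 9093 and 221452 counts in the control library and treated libraries 1, 2 and 3. The 7 markers summed to 88291, 90268, 79133 and 128460 per 1000000 of the remaining counts in these libraries. Without CKM the sums were 39870, 56817, 27411 and 50825, so the markers did not all move as CKM did. The name ACTA1, skeletal muscle actin, had 130, 6, 0 and 3 counts, while the unigene paired with ACTA2 that matches skeletal actin held far more. This order of libraries is kept in all lists of 4 values, and lists of 3 values give treated libraries 1, 2 and 3.

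The sequences are shown first because they decide which gene a count belongs to. The first set surrounds the ATP-binding loop of the head, which all class II myosins share, and capitals mark the codons of the loop. The table pairs the first of these unigenes with MYH10, but its Swiss-Prot match in the deposited annotation is MYH14.
c13229_g1 (MYH14 by match): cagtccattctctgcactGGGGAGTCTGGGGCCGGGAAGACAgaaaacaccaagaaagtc
c13229_g3 (MYH9): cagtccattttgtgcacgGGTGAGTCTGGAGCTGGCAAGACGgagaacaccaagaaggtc
c47689_g1 (MYH11): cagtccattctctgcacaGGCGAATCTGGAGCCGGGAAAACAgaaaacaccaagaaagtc
c50563_g1 (MYH10): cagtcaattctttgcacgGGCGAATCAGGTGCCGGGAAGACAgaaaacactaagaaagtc
These 60 bases differed at 5 to 13 positions between any of the 4 unigenes, and at 8 positions between c13229_g1 and c50563_g1, which carry the same name in the table.

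The second set is the end of each heavy chain's reading frame, the short non-helical tail, with the stop codon in capitals. It is shown because this stretch tells the heavy chains apart, with 54 to 65 of 90 bases differing, and because the unigenes that hold it kept most of the counts in the treated libraries.
c13229_g6 (MYH9): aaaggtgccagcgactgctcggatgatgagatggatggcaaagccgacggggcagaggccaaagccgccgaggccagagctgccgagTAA
c10949_g1 (MYH10): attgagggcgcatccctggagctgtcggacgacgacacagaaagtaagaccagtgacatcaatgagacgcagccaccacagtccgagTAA
c13229_g5 (MYH11): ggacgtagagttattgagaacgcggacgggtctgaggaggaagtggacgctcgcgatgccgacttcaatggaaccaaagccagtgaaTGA
c10074_g1 (MYH14 by match): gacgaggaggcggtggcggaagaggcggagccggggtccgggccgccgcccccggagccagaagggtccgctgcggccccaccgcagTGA
The table gives c10949_g1 and c10074_g1 the same name, MYH10, yet 56 of these 90 bases differed between them.

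The unigenes paired with MYH10 therefore came from more than 1 gene. c10074_g1 and c10949_g1 cover the same part of the chain, and over 985 aligned residues they were 57.9% identical in residues and 62.9% identical in bases, with 24 bases as the longest run in common. The table's own identity to the goat MYH10 protein was 99% for c10949_g1, 73% for c10074_g1 and 78% for c13229_g1. Both of the latter match MYH14 in Swiss-Prot, and together with c13229_g2, the only unigene the table pairs with MYH14, they span residues 23 to 1948 of the goat MYH9 reading frame. Another unigene, c55409_g1, is paired with MYH9 at 88% identity and matches MYH11. Among 8847 unigenes of the table whose goat gene and Swiss-Prot gene could be compared, 2.42% carried different names, and of the 295 with an identity under 80% this share was 39.3%.

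The regrouping changed which heavy chain led. By the table, MYH10 had 1984 counts in the control library and MYH14 had 142. By the match, MYH14 had 1899 and MYH10 had 227. The MYH14-like unigenes made up 88.6% of what the table counts as MYH10 in the control library (87.1 to 89.9%, a Wilson interval at 95%) and 67.3% in treated library 1 (62.3 to 71.9%). In treated library 3 they were 89.1% (84.6 to 92.3%), and treated library 2 had 16 such counts in all. Both groupings are given below, with the match as the one that keeps each gene's sequence together.

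**Figure D1:**
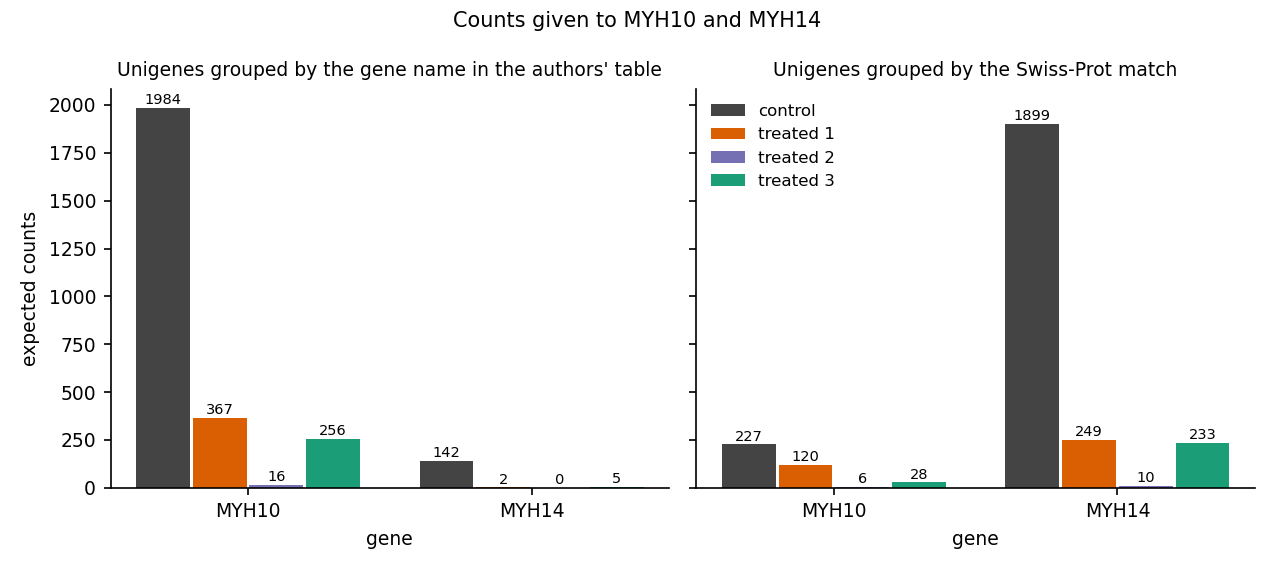
Expected counts (vertical axis, linear from 0) of MYH10 and MYH14 in the 4 libraries, with unigenes grouped by the authors' table on the left and by their Swiss-Prot match on the right. Bars carry their counts, and the control library's large bar moves from MYH10 (1984) to MYH14 (1899).

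In the control library MYL6, the essential light chain shared by non-muscle and smooth muscle myosin, had the highest level per length among the members, 38.6 counts per kb and 1000000 of all counts (95% exact Poisson interval 34.0 to 43.6). MYH14, the heavy chain of non-muscle myosin IIC, followed by the match at 31.6 (30.2 to 33.03). MYH9, the heavy chain of non-muscle myosin IIA, was at 22.7 (21.4 to 24.1). MYH10, the heavy chain of IIB, was at 4.01 (3.51 to 4.57), MYH11 at 2.80 (2.31 to 3.35) and MYLK at 1.75 (1.26 to 2.35). Of these neighbours, MYH11 and MYLK had intervals that touched, and those of the others did not overlap. The intervals cover counting error only, since each condition had 1 library.

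The order per length was the same in treated libraries 1 and 2 apart from the 2 leading heavy chains. In treated library 1, MYL6 was at 83.1 (76.0 to 90.8) counts per kb and 1000000, MYH9 at 12.3 (11.1 to 13.5) and MYH14 at 4.43 (3.90 to 5.01). In treated library 3, MYL6 was at 45.8 (40.02 to 52.1), MYH9 at 7.66 (6.78 to 8.62) and MYH14 at 4.96 (4.35 to 5.64). MYH9 was thus above MYH14 in each treated library and below it in the control library. MYH10 and MYH11 had levels of 0.111 and 0.0819 in treated library 2 with overlapping intervals, and in treated library 3 MYH11 at 1.19 (0.845 to 1.64) was above MYH10 at 0.596 (0.396 to 0.861), with intervals that met only near their ends.

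MYH9 had 1135 control counts and 406, 29 and 274 counts in treated libraries 1, 2 and 3. Per 1000000 of all counts, the ratio to the control library was 0.383 (95% exact Clopper-Pearson interval 0.341 to 0.430), 0.0297 (0.0198 to 0.0429) and 0.309 (0.269 to 0.352). Relative to the remaining counts the ratios were 0.528 (0.470 to 0.591), 0.932 (0.622 to 1.35) and 0.543 (0.474 to 0.620). MYH9 was lower than the control library in each treated library on the first scale, and in treated libraries 1 and 3 on the second, where the interval of treated library 2 included 1.

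MYH14 had 1899, 249, 10 and 233 counts by the match. The ratios per 1000000 of all counts were 0.141 (0.123 to 0.160), 0.00612 (0.00293 to 0.0113) and 0.157 (0.136 to 0.180), and relative to the remaining counts they were 0.193 (0.169 to 0.221), 0.192 (0.0920 to 0.354) and 0.276 (0.240 to 0.316). Its interval lay wholly below 1 in every treated library on both scales, and grouped by the table, where these counts go to MYH10, the same held for MYH10. The table's single MYH14 unigene, c13229_g2, had 142, 2, 0 and 5 counts. Its ratio in treated library 1 was 0.0151 (0.00181 to 0.0555) per 1000000 of all counts. On this scale its fall in treated library 2 was 40.7-fold or more, as calculated with 3 counts there. Relative to the remaining counts, the ratio in treated library 1 was 0.0208 (0.00249 to 0.0764). For treated library 2 the same calculation then gave a fall of 1.30-fold or more, and the interval of the ratio reached up to 0.960.

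MYH10 had 227, 120, 6 and 28 counts by the match. On the scale of all counts the ratios were 0.567 (0.450 to 0.710), 0.0307 (0.0112 to 0.0679) and 0.158 (0.102 to 0.234). Relative to the remaining counts, treated library 1 stood at 0.780 (0.620 to 0.977), treated library 2 at 0.965 (0.350 to 2.13) and treated library 3 at 0.277 (0.180 to 0.412). By the table, with the MYH14-like unigenes included, the ratio in treated library 1 on the scale of all counts was 0.198 (0.177 to 0.222). By the match MYH10 was nearer to the control library in treated library 1 than in treated library 3. By the table the ratios relative to the remaining counts were 0.273 (0.243 to 0.305) and 0.290 (0.254 to 0.331) in these libraries, with overlapping intervals.

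MYH11 had 118, 50, 3 and 38 counts by the match and 113, 50, 3 and 38 by the table. The ratios by the match were 0.454 (0.319 to 0.637), 0.0296 (0.00601 to 0.0885) and 0.412 (0.278 to 0.598) per 1000000 of all counts. Relative to the remaining counts they were 0.625 (0.440 to 0.877), 0.928 (0.189 to 2.78) and 0.724 (0.489 to 1.05), so that only treated library 1 had an interval below 1. With 3 counts, its level in treated library 2 could not be told from that of the control library on this scale.

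The smooth muscle markers did not share 1 pattern with MYH11. All 9 of the listed markers, MYH11 among them, were in the table and none was at 0 in any library. TAGLN, an actin-binding protein of contractile smooth muscle, had 211, 319, 16 and 182 counts, SMTN, which encodes smoothelin, had 351, 347, 21 and 260, and LMOD1, which encodes a leiomodin, had 290, 100, 4 and 106. The unigene that holds nearly all ACTA2 counts matches skeletal muscle actin in Swiss-Prot, and without ACTA2 the summed level of the list ran from 523 to 763 per 1000000 of the remaining counts in the treated libraries, against 2136 in the control library. SYNPO2, which skeletal fibres express as well, had 12242, 1808, 8 and 1453 counts and was most of that sum except in treated library 2. The fall of SYNPO2 accounts for the fall of the sum in each treated library. The part of smooth muscle cells in the MYH11 values was not tested.

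MYL6 differed from the heavy chains. It had 255 control counts and 496, 34 and 228 counts in the treated libraries. Per 1000000 of all counts the ratios were 2.08 (1.79 to 2.43), 0.155 (0.105 to 0.222) and 1.14 (0.952 to 1.37), and relative to the remaining counts they were 2.87 (2.46 to 3.35), 4.87 (3.30 to 6.98) and 2.01 (1.67 to 2.41). On the second scale MYL6 was above the control library in each treated library. Its direction in treated library 2 depended on the scale.

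MYLK, the kinase of smooth muscle and non-muscle light chains, had 43, 1, 0 and 5 counts over 5 unigenes. Its mean level of 2.29 fragments per 1000000 lay under the minimum of 5 used for counting genes. The ratio per 1000000 of all counts was 0.0249 (0.000617 to 0.146) in treated library 1 and 0.149 (0.0460 to 0.374) in treated library 3, and in treated library 2 it was at least 12.3-fold lower, as calculated with 3 counts. On the scale of the remaining counts, a count of 0 in treated library 2 could not be told from the control level at this depth. The skeletal muscle kinase MYLK2, in comparison, had 11335, 8491, 100 and 2604 counts.

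**Figure D2:**
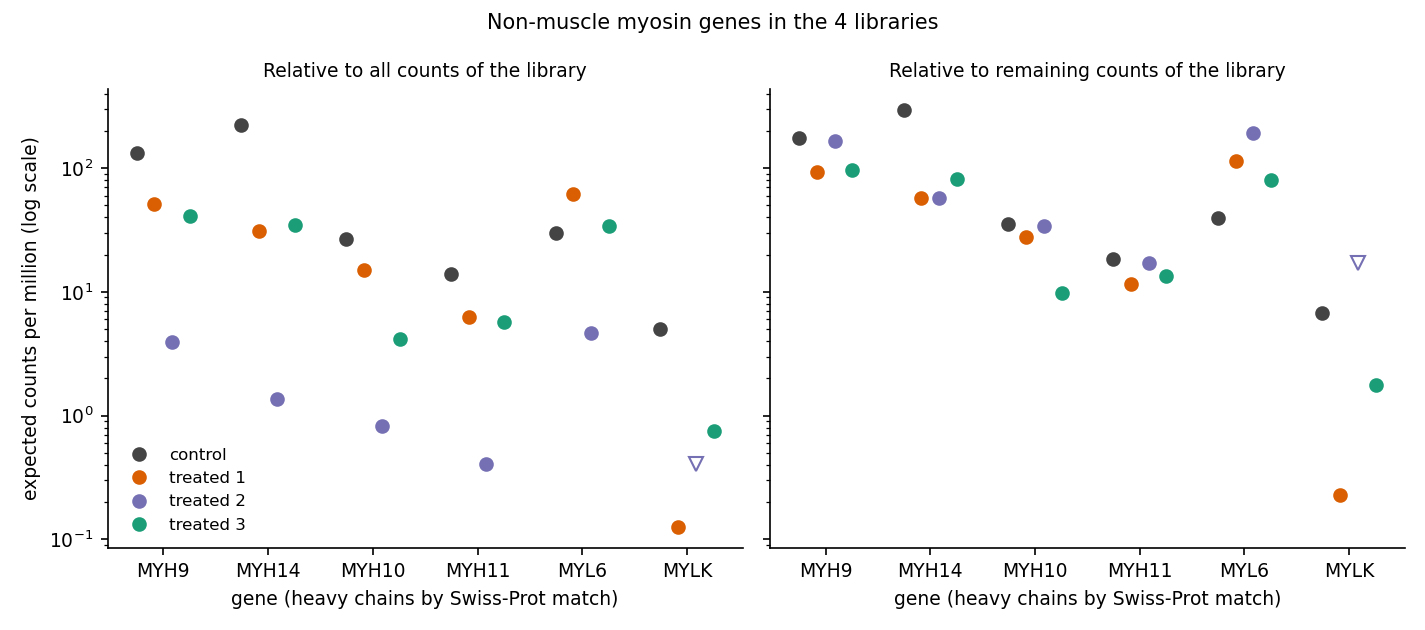
Expected counts per 1000000 (log scale) of the 6 genes in the control library and treated libraries 1 to 3, relative to all counts on the left and to the remaining counts on the right. Open triangles stand at 3 counts for a library with 0 counts (MYLK in treated library 2). The points of treated library 2 lie far below the others on the left, and on the right MYL6 is above the control library in all 3 treated libraries while MYH14 is below it.

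The limits of the study were an x-fold, the ratio of treated to control level, below 0.6 or above 3. The study also required statistical significance and x-folds that did not differ between its 3 sampling days, which were not applied here. The x-fold limits were applied to gene levels (FPKM times length in kb, summed over the unigenes of a gene, with 0.1 added). Of the 6 members in the table, 5 passed the minimum level. In treated library 1, 4 of these 5 were below 0.6, where 55.1% of the 5277 goat genes tested were below it. In treated library 2 it was 5 of 5 beside 99.5%, in treated library 3 it was 4 of 5 beside 73.8%, and in all 3 libraries it was 4 of 5 beside 50.8%. No member was above 3, where 2.03%, 0.0758% and 0.379% of the goat genes were. Relative to the remaining counts, 4, 2 and 3 of the 5 members were below 0.6 and 2 were in all 3 libraries, beside 36.1%, 55.1%, 36.2% and 19.9% of the goat genes. With the median goat gene set level with the control library, the members were 2, 2, 2 and 2 of 5, beside 21.8%, 38.7%, 18.6% and 8.6%. Since this contrast chose the members, nothing is read from these counts.

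The members' median log2 x-folds were -1.39, -5.06 and -1.72, and those of all goat genes tested were -0.86, -5.62 and -1.26. On the scale of log2 x-fold by the table, MYH9 was at -1.39, -5.06 and -1.72, MYH10 at -2.36, -6.69 and -2.62, MYH11 at -1.22, -4.89 and -1.36, and MYH14 at -5.67, -7.65 and -4.33. The nearest values on either side of 0.6 outside treated library 2 were an x-fold of 0.429 for MYH11 in treated library 1 and 1.15 for MYL6 in treated library 3. With the unigenes grouped by the match, MYH10 in treated library 1 moved to 0.544 and MYH14 moved from 0.0197 to 0.137. MYH9 was among the genes that the study selected and also measured by qRT-PCR. The RNA-seq x-folds that the study prints for MYH9 differ from those given here.

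Within MYH9 and within MYH14, the unigenes of the head stood at a far smaller part of their control level in treated libraries 1 and 3 than the unigene of the tail end. For MYH9, the annotated protein of c13229_g3 covers residues 1 to 676 with the ATP-binding loop. That of c13229_g6, which holds the stop codon, covers residues 736 to 1967, although the open frame of this unigene also runs upstream of residue 736. These 2 unigenes end and begin on the same 21 bases, and joined there they read through as 1 frame of 1967 residues. Those 21 bases also occur in 1 other heavy chain unigene.

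The MYH9 head unigene c13229_g3 had 259, 8, 0 and 19 counts. The tail unigene c13229_g6 had 876, 398, 29 and 255. Per 1000000 of all counts, the head was at 0.0331 (0.0141 to 0.0662) of the control level in treated library 1 and at 0.0938 (0.0556 to 0.149) in treated library 3, whereas the tail was at 0.487 (0.431 to 0.549) and 0.372 (0.322 to 0.428). In treated library 2 the head was at least 74.3-fold lower, as calculated with 3 counts, and the tail was at 0.0385 (0.0256 to 0.0557). Relative to the remaining counts, the head in that library was at least 2.37-fold lower and the tail was at 1.21 (0.804 to 1.75). The x-fold of MYH9 thus depends on which part of the transcript is counted. Scaling by the remaining counts moves both parts of a library by the same factor and leaves this difference as it is.

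MYH14 showed the same order. Its stop codon unigene c10074_g1 had 1616, 247, 10 and 224 counts, and its head unigenes c13229_g1 and c13229_g2 together had 283, 2, 0 and 9. The ratios per 1000000 of all counts were 0.164 (0.143 to 0.187) and 0.177 (0.153 to 0.204) for the former in treated libraries 1 and 3, and 0.00757 (0.000913 to 0.0276) and 0.0407 (0.0184 to 0.0783) for the latter. c13229_g2 and the MYH9 head unigene c13229_g3 share a run of 97 bases, and how the counting divided reads from it is not given in the sources used here, so their counts are uncertain to that extent.

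For MYH10, c10949_g1 with the stop codon had 177, 108, 6 and 27 counts and the other 3 unigenes had 50, 12, 0 and 1. For MYH11, c13229_g5 with the stop codon had 67, 41, 2 and 27 and the other 6 unigenes had 51, 9, 1 and 11. The MYLK unigene with the stop codon had 25, 1, 0 and 5 counts and the other 4 had 18, 0, 0 and 0. In each of these genes the unigene that ends the frame held the larger part of the few counts in treated libraries 1 and 3. For MYH11 the ratios per 1000000 of all counts in treated library 3 were 0.515 (0.317 to 0.816) for this unigene and 0.276 (0.130 to 0.536) for the others, with overlapping intervals.

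**Figure D3:**
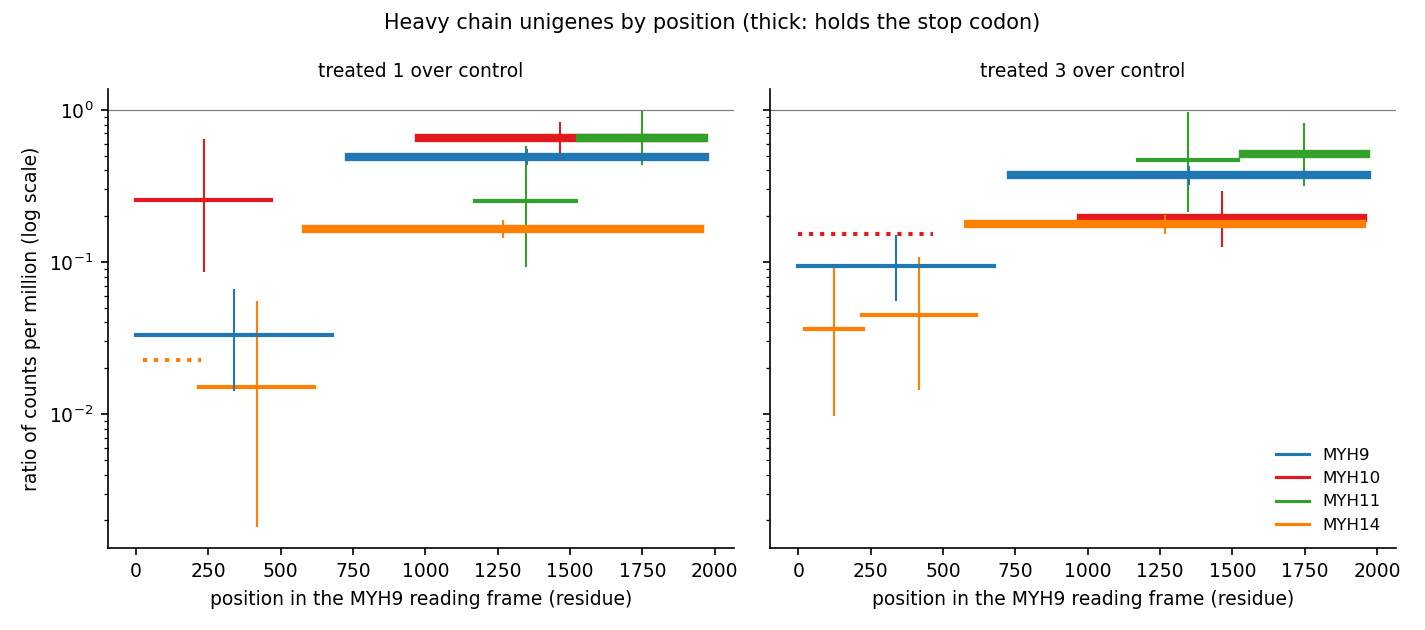
Ratio of counts per 1000000 of all counts to the control library (log scale) for the heavy chain unigenes with at least 20 control counts. Each is drawn over the residues of the MYH9 reading frame that its annotated protein aligns with. Thick lines hold the stop codon, thin vertical lines are 95% exact intervals, and dotted lines stand at 3 counts where the treated library had 0. Within MYH9 the head lies below the tail end, at 0.0331 against 0.487 in treated library 1. There the head of MYH10 at 0.257 (0.0863 to 0.642) and the tail end of MYH14 at 0.164 (0.143 to 0.187) have overlapping intervals.

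As a share of a heavy chain's counts, the stop codon unigene of MYH9 took 77.2% in the control library (74.6 to 79.5%, Wilson) and 98.0% (96.2 to 99.0%), 100% (88.3 to 100%) and 93.1% (89.4 to 95.5%) in the treated libraries. For MYH14 the shares were 85.1% (83.4 to 86.6%), then 99.2% (97.1 to 99.8%), 100% (72.2 to 100%) and 96.1% (92.8 to 98.0%). For MYH10 they were 77.97% (72.1 to 82.9%), 90.0% (83.3 to 94.2%), 100% (61.0 to 100%) and 96.4% (82.3 to 99.4%). For MYH11 they were 56.8% (47.8 to 65.4%), 82.0% (69.2 to 90.2%), 66.7% (20.8 to 93.9%) and 71.1% (55.2 to 83.0%). The interval lay above that of the control library for MYH9 and MYH14 in treated libraries 1 and 3 and for MYH10 and MYH11 in treated library 1. In treated library 2 this held for MYH9 alone, with 29 counts.

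The same shift was seen across the table. Among other goat genes with a unigene that holds the stop codon and another that does not, the share in the former exceeded the control share in 93.1% of 712 genes for treated library 1. For treated library 2 it did in 72.8% of 92 genes, and for treated library 3 in 88.2% of 679. The median of the difference was 17.5 percentage points in treated library 1 (quartiles 6.36 to 30.4) and 11.5 in treated library 3 (3.30 to 21.4). MYH9 differed by 20.8 and 15.9 points, MYH14 by 14.1 and 11.0, MYH10 by 12.0 and 18.5, and MYH11 by 25.2 and 14.3, all inside these quartiles. In treated library 2 the median over the 92 genes was 1.04 points (quartiles 0 to 13.3), and MYH9 with 22.8, MYH10 with 22.0 and MYH14 with 14.9 points lay above the upper quartile while MYH11 with 9.89 lay inside, on 29, 6, 10 and 3 counts. The other genes were limited to unigenes of at least 95% identity and to at least 50 control and 10 treated counts, and the members were not. Measures of RNA length per library are not among the data used here. The study reports only a range of RNA integrity numbers for its sequenced samples, and judged that RNA complete. The part of RNA length in the shift was not tested.

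**Figure D4:**
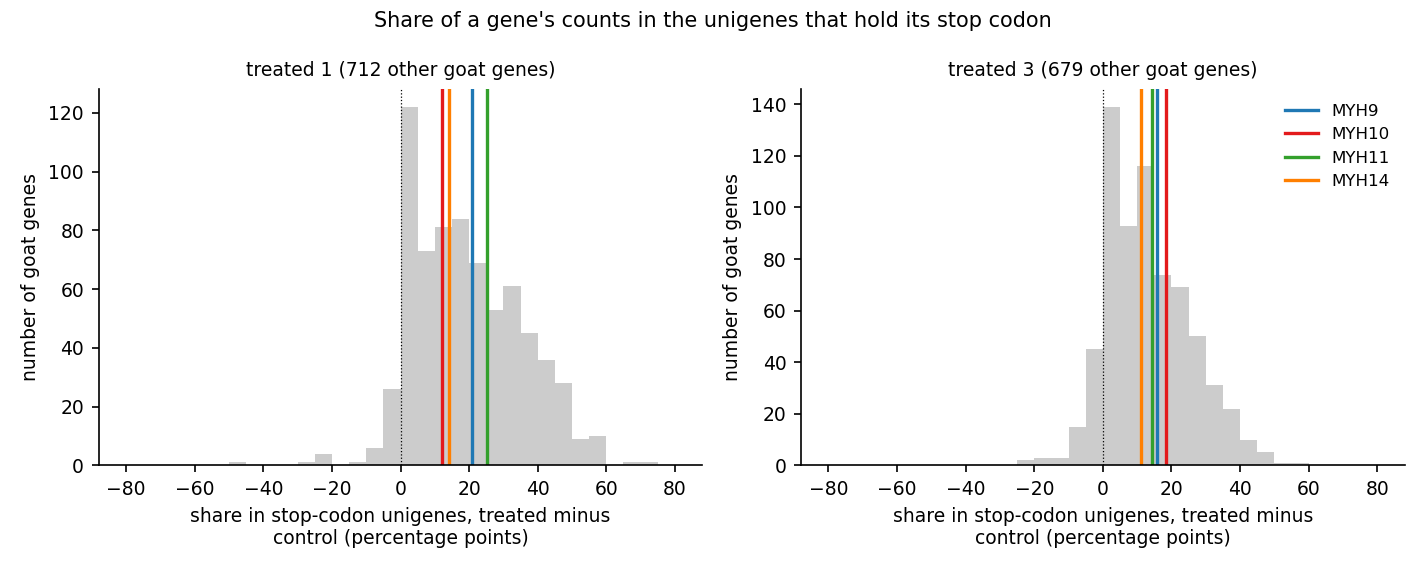
Difference in the share of a gene's counts in its stop codon unigenes, treated minus control library in percentage points, as histograms over 712 and 679 other goat genes (vertical axis, number of genes) for treated libraries 1 and 3. Coloured lines mark the 4 heavy chains, which lie between 11.0 and 25.2 points and within the body of both histograms.

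The transcript table showed the same libraries apart within a unigene. The tail unigene of MYH9 was divided into a transcript of 5329 bases and one of 1892 bases. The shorter took 109, 155, 10 and 66 of the counts. As shares these were 12.4% (10.4 to 14.8%), 38.9% (34.3 to 43.8%), 34.5% (19.9 to 52.7%) and 25.9% (20.9 to 31.6%). MYL6 was divided into 5 transcripts, of which the longest, with 1223 bases, took 18.4% (14.2 to 23.6%), 9.48% (7.20 to 12.4%), 5.88% (1.63 to 19.1%) and 11.0% (7.54 to 15.7%). These longest transcripts had smaller shares in treated libraries 1 and 3 than in the control library, with intervals that overlapped for MYL6 in treated library 3. In the head unigene of MYH9 the longer transcript, of 2213 bases, took 90.3% (86.1 to 93.4%) in the control library and 94.7% (75.4 to 99.1%) of 19 counts in treated library 3, with overlapping intervals.

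Treated libraries 1 and 3 can be set against each other without the control library. Relative to the remaining counts, the ratio of library 1 to library 3 was 0.972 (0.831 to 1.14) for MYH9, 0.701 (0.584 to 0.841) for MYH14, 2.81 (1.85 to 4.41) for MYH10 and 0.863 (0.555 to 1.35) for MYH11 by the match. For MYL6 it was 1.43 (1.22 to 1.68). Of 7189 goat genes with at least 20 counts in these libraries, 24.0% had an interval above 1 and 23.7% had one below 1. On this scale MYH10 and MYL6 were higher in library 1, MYH14 was higher in library 3, and MYH9 and MYH11 had intervals that included 1. With the table's grouping the ratio of MYH10 was 0.940 (0.799 to 1.11), and on the scale of all counts that of MYH14 by the match was 0.896 (0.746 to 1.08) and that of MYH9 was 1.24 (1.06 to 1.45), so that the calls for both depend on the scale. As there was 1 library on each side, these intervals describe the libraries and not the spread between animals.

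**Figure D5:**
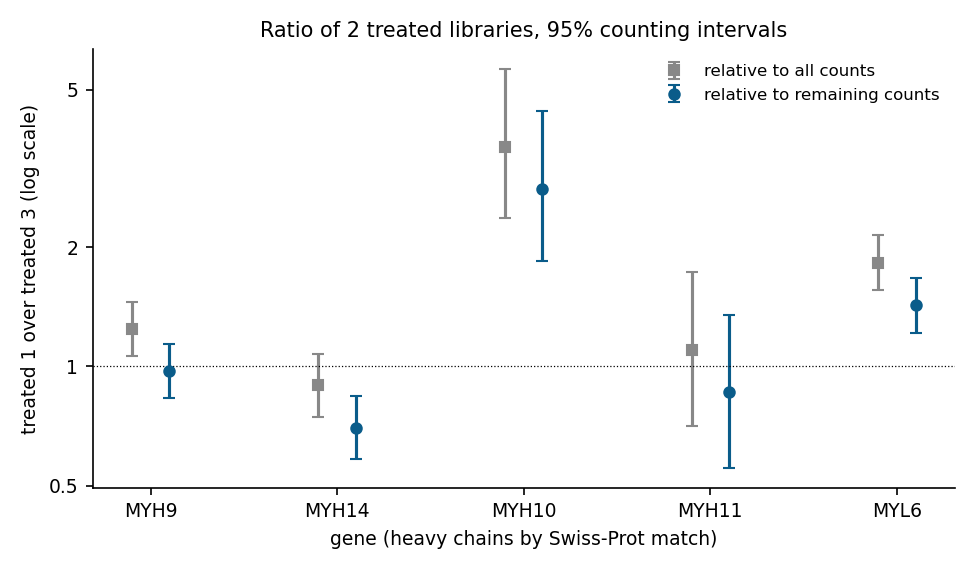
Ratio of treated library 1 to treated library 3 (log scale) with 95% exact counting intervals, relative to all counts (squares) and to the remaining counts (circles). MYH10, grouped by its match, stands highest at 2.81 on the second scale, and the MYH9 interval includes 1 on the second scale (0.972) and lies above it on the first (1.24).

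The regulatory light chains carry the site that MYLK phosphorylates. The names MYL9 and MYL12B are not in the table, but 2 other goat gene names hold such chains. LOC102178087 is MYL9 by its gene number in the RefSeq annotation of the goat assembly ARS1.2, and LOC102174891 has no name there and matches an MYL12A entry of Swiss-Prot. The set below surrounds the site, with the threonine and serine codons in capitals, and is shown because both chains carry it.
c12931_g1 (LOC102178087, MYL9): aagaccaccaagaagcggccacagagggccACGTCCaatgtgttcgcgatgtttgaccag
c11174_g1 (LOC102174891): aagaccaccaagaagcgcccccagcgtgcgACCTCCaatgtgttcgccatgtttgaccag
They differed at 7 of 60 bases. LOC102178087 had 129, 101, 16 and 74 counts, with ratios relative to the remaining counts of 1.15 (0.881 to 1.51), 4.53 (2.51 to 7.63) and 1.29 (0.956 to 1.73), and per 1000000 of all counts of 0.839 (0.640 to 1.10), 0.144 (0.0800 to 0.243) and 0.733 (0.543 to 0.983), so that the ratios lay above 1 on the former scale and below 1 on the latter. LOC102174891 had 10386, 3948, 37 and 966 counts, with ratios of 0.561 (0.540 to 0.582), 0.130 (0.0915 to 0.179) and 0.209 (0.196 to 0.223) on the first of these scales and of 0.407 (0.393 to 0.423), 0.00414 (0.00291 to 0.00571) and 0.119 (0.111 to 0.127) on the other. Its unigene is 6165 bases long, of which 5152 follow the reading frame, and whether all of these belong to this gene was not tested. The 2 regulatory light chains differed in these ratios on both scales.

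MYL6B, an essential light chain of slow fibres and non-muscle cells, is a relative of MYL6 and had 5890, 3782, 8 and 1138 counts. Its ratios on the scale of the remaining counts were 0.947 (0.909 to 0.987), 0.0496 (0.0214 to 0.0977) and 0.435 (0.408 to 0.463), against 2.87, 4.87 and 2.01 for MYL6. Per 1000000 of all counts they were 0.688 (0.660 to 0.717), 0.00158 (0.000681 to 0.00311) and 0.247 (0.232 to 0.263), and in treated library 2 both genes were then below the control library.

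Of the 25 genes listed as regulators of non-muscle myosin, such as small GTPases, kinases and the myosin phosphatase, 23 were in the table and 16 passed the minimum level. In treated libraries 1, 2 and 3, 7, 16 and 13 of them lay below 0.6, 6 did so in all 3, and none lay above 3, where the shares over all goat genes were 55.1%, 99.5%, 73.8% and 50.8%. Their median log2 x-folds were -0.50, -5.77 and -1.16, beside -0.86, -5.62 and -1.26 for all goat genes. Among those of highest level per length in the control library were the calmodulin gene CALM2, whose product activates MYLK with calcium, at 3415, 2359, 36 and 1513 counts, and the GTPase RHOA at 633, 340, 24 and 275. Their x-folds in treated library 1 were 0.700 and 0.573.

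Of the 20 cytoskeletal partners, 17 were in the table and all of these passed. Below 0.6 lay 6, 16 and 10 of them and above 3 lay 3, 0 and 2, beside 55.1%, 99.5% and 73.8% of all goat genes below and 2.03%, 0.0758% and 0.379% above, with median log2 x-folds of -0.30, -4.49 and -0.999. Beside MYL6B, the 2 of highest level per length were the tropomyosin gene TPM3 at 13240, 6792, 79 and 2891 counts and SVIL, which encodes the myosin- and actin-binding protein supervillin, at 8091, 787, 9 and 842. The x-folds of SVIL were 0.104, 0.00137 and 0.133.

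The sarcomeric myosins, the fibre's own motor, were the closest group in sequence. Of 19 listed heavy chains, light chains and kinases, 11 were in the table and 8 passed, and 3, 8 and 5 of them were below 0.6 while 1, 0 and 0 were above 3, beside the same shares of all goat genes. The median log2 x-folds were 0.14, -6.27 and -1.15. MYH4, the fast heavy chain, had 140550, 193165, 929 and 120846 counts, and MYLPF, the fast regulatory light chain, had 66808, 99731, 2510 and 64080. MYL2, the slow regulatory light chain, had 50534, 8799, 247 and 4848. The x-folds in treated library 1 were 1.52 for MYH4, 1.58 for MYLPF and 0.184 for MYL2, beside 0.380 for MYH9. The difference between the groups was not tested, as their values share the same 4 libraries.

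Markers of other cells moved between the libraries as well. The endothelial markers, of which 6 of 7 were in the table, summed to 314, 252, 785 and 417 per 1000000 of the remaining counts and, without VWF, to 144, 203, 506 and 244. The fibroblast markers, 6 of 6, summed to 150, 208, 4283 and 333. The leukocyte markers, 3 of 5, summed to 16.7, 128, 324 and 39.3, and the adipocyte markers, 2 of 4, to 12.6, 93.8, 592 and 23.8, and nearly all of these were CD74 with 98, 538, 57 and 109 counts and ADIPOQ with 75, 403, 99 and 64. All 6 endothelial markers found were above 0 in every library, 1 fibroblast marker was at 0 in each treated library, and 2 leukocyte markers were at 0 in treated library 2. None of the 3 red blood cell markers was a name in the table. The part of these cells in the values of MYL6 and of the heavy chains was not tested.

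The 5 goat genes whose 3 log2 x-folds lay closest to those of MYH9, among 4418 with at least 100 control counts, were SHMT2, MPDZ, CIC, MORC2 and ANAPC2, at Euclidean distances from 0.0900 to 0.182. SHMT2, a mitochondrial serine hydroxymethyltransferase, had 137, 51, 3 and 32 counts, and ANAPC2, a subunit of the anaphase-promoting complex, had 356, 136, 8 and 82. The likeness is over 3 x-folds that share 1 control library. GAPDH, the reference gene of the study's qRT-PCR, had 111313, 66565, 4205 and 84905 counts and x-folds of 0.637, 0.0443 and 0.970.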

How the data were processed

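RNA-seq data of 4 goat muscle libraries were used. The authors sequenced on an Illumina instrument, and the submitters' processing notes name FastQC 0.10.1. The assembler and the counting tool are not given in the sources used here. The authors deposited, per unigene and per transcript, expected counts (all whole numbers), TPM (transcripts per 1000000, not used) and FPKM, together with a table pairing 21220 unigenes with goat gene names and percent identity, and an annotation with sequences. Their tables of unigenes per FPKM class were not used. The lengths deposited per library were used for levels.

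The members and gene lists were chosen with earlier results of these data known. All 8 members, GAPDH, the 3 genes of highest count per kb in each list and the 5 genes nearest MYH9 are named, except 1 gene of a list that is not reported here, and other genes were named after their values were seen. Gene levels were FPKM × kb, summed, with 0.1 added, for genes with a mean of at least 5 per 1000000. The nucleotide match gave the class of 35 mitochondrial, 37 ribosomal and 174 bacterial unigenes, and some ribosomal sequence stays among the others. For goat genes other than the members, stop codon shares used unigenes of at least 95% identity, with at least 100 bases after the stop codon, at least 50 control counts and at least 10 treated counts, and the members' shares used all their unigenes. Intervals are exact Clopper-Pearson for ratios, exact Poisson for levels and Wilson for shares, at 95%, and cover counting error only. With 1 control library, no conditions were tested against each other. Calculations were tested on simulated data. Alternatives covered pseudocounts, scalings (edgeR 4.0.16 TMM among them), minima, limits, groupings and single libraries. Software was R 4.3.3 and Python 3.11.15 with Biopython 1.88, scipy 1.17.1, numpy 2.4.6, matplotlib 3.10.9 and pandas 2.3.3.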

Additional observations from a re-analysis of the deposited data

How the results depend on the processing

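The count of members below 0.6 in all 3 treated libraries was 4 of 5. It was 2 under median scaling of goat genes, under scaling to the remaining counts, under edgeR TMM scaling and under scaling to nuclear goat gene counts, and 2 of 3 when only unigenes with the stop codon were used. The goat genes below 0.6 in all 3 were 2681 of 5277, and 454, 1049, 1029 and 924 under these scalings in that order, and the stop codon limit was set on members only. In treated library 1 the count was 2 in place of 4 under median scaling and 2 of 3 with stop codon unigenes only. In treated library 2 it was 2 in place of 5 under each of the 4 scalings and 3 of 3 with stop codon unigenes. Of the 5277 goat genes, 2040, 2908, 3556 and 2446 were below 0.6 in treated library 2 under these scalings, in the order above. In treated library 3 the count of members was 2 in place of 4 under median scaling and 2 of 3 with stop codon unigenes. Under median scaling the goat genes below 0.6 were 1151 in place of 2907 in treated library 1 and 979 in place of 3896 in treated library 3. Leaving out each treated library in turn gave 4 members low in the others. This count cannot be smaller than that for all 3 libraries, so nothing is read from its staying at 4. The direction in treated library 2 reversed for MYL6, with x-folds of 3.63 (TMM), 7.82 (median), 4.9996 (remaining counts) and 6.29 (nuclear goat gene counts), for MYH9 at 1.44 (median) and 1.16 (nuclear goat gene counts), and for MYH11 at 1.37 (median) and 1.10 (nuclear goat gene counts). The scalings divide by fewer counts in treated library 2 by construction. The other pseudocounts, minima, limit, the single unigene of highest FPKM, the transcript table and the Swiss-Prot grouping left the counts of members within 1.5 times. The count of goat genes below 0.6 in all 3 libraries moved further under the other minima. It was 4564 of 8718 with a minimum of 1 and 5688 of 11209 with no minimum. Scaling to nuclear goat gene counts, the Swiss-Prot grouping and the stop codon unigenes were chosen after seeing the data. The planned grouping by RefSeq goat proteins was not run, as those sequences were not used here. No paired analysis was possible because the control group has 1 library and shares fewer than 2 replicate numbers with the treated group. Depth limits treated library 2, where a count of 0 allows 0.409 per 1000000 of all counts and 17.1 per 1000000 of the remaining counts.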
